A study of Rattus norvegicus with 19 samples.

Results

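The comparison set 6 radiation-induced rat mammary carcinomas with high levels of 4 macrophage genes against 6 with low levels of them. The members were chosen by measured values: the 13 carcinomas of the series were ranked by a score, the mean of Cd68, Csf1r, Cd163 and Mrc1 after each gene was centred on its carcinoma mean. The 6 highest (carcinomas 1, 2, 5, 7, 8 and 10) are called high-score, the 6 lowest (carcinomas 3, 4, 6, 9, 11 and 13) low-score, and the carcinoma in the middle of the ranking, number 12, was left out of the comparison of groups. These 12 carcinomas were compared across all other genes, and the 6 normal mammary glands that complete the series of 19 samples served as a reference level. Every sample came from a female F1 hybrid of the Sprague-Dawley and Copenhagen strains and was measured on 1 single-colour (Cy3) Agilent array. All carcinomas are described as radiation-induced. Rats in the study had no treatment or, at 7 weeks of age, a whole-body gamma dose of 4 Gy. All 13 carcinomas are annotated with this dose and age. Not stated in the labels are the treatment behind each normal gland, the age of the rats when tissue was taken, and whether each carcinoma came from a different rat. The p-values below therefore measure the spread between these samples. Because the groups are ranks of 4 genes on the same arrays, the comparison shows which other genes varied with the score, not the effect of a treatment.

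Macrophages are phagocytic cells that arise from embryonic precursors or from blood monocytes. Their survival depends on the receptor CSF1R and its ligands CSF1 and IL-34, and the transcription factor PU.1, encoded by Spi1, sets up their gene expression. In the mammary gland they lie along ducts and in the fat, clear dying cells and take part in the remodelling of the gland, and in mammary tumours they lie among the carcinoma cells and in the collagen-rich stroma. The score genes mark different sides of the cell. Cd68 encodes a glycoprotein of lysosomes, Csf1r the growth factor receptor, Cd163 the receptor for haemoglobin-haptoglobin complexes, and Mrc1 the mannose receptor.

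Levels are log2 intensities relative to the 75th percentile of the array, so a negative level lies below that percentile. Levels of different probes are not on a common scale and are compared only between samples. The score ran from -1.61 in carcinoma 11 through -0.88 in carcinoma 6, -0.85 in carcinoma 13, -0.71 in carcinoma 4, -0.13 in carcinoma 3 and -0.08 in carcinoma 9 on the low side. On the high side it was 0.16 in carcinoma 1, 0.28 in carcinoma 7, 0.45 in carcinoma 5, 0.73 in carcinoma 2, 0.84 in carcinoma 10 and 1.77 in carcinoma 8. Carcinoma 12, with a score of 0.04, lay between carcinomas 9 and 1, and no gap in the scores separated the groups. Carcinomas 8 and 11 stood at the ends of the range.

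Each score gene overlapped between the groups it helped to define. Cd68 was 0.99, 2.11 and 3.22 (lowest, median and highest) in high-score carcinomas, 0.04, 1.13 and 2.30 in low-score carcinomas and 2.51, 3.39 and 4.02 in normal glands. Csf1r was -1.93, -1.78 and -0.61 in high-score carcinomas, -3.85, -2.56 and -1.82 in low-score carcinomas and -1.97, -1.33 and -0.08 in normal glands. Both genes were high in carcinoma 8, and Cd68 was highest of all carcinomas in carcinoma 12, at 3.27. Cd163 was -2.66, -0.43 and 0.17 in high-score carcinomas, -3.30, -2.61 and -1.60 in low-score carcinomas and 0.57, 1.32 and 2.54 in normal glands. Mrc1 was -4.82, -3.65 and -2.30 in high-score carcinomas, -6.50, -5.10 and -4.02 in low-score carcinomas and -3.46, -2.59 and -1.86 in normal glands. All 6 normal glands lay above all 12 compared carcinomas for Cd163 only, and the score computed for normal glands was 1.37 to 2.33. The rule was made of these values, so they are a description with no test. Between the 4 genes, Pearson's r over the 13 carcinomas ranged from 0.35 for Cd68 with Cd163 to 0.82 for Csf1r with Mrc1, among values that share an array. A second Csf1r probe, which is not in the score, correlated with it at r = 0.43 over 13 carcinomas. The probe used had r = 0.88, but it is itself a part of the score, so the 2 values are not alike. Fewer macrophages in a piece of tissue and less of these RNAs per macrophage cannot be told apart in these bulk samples.

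**Figure D1:**
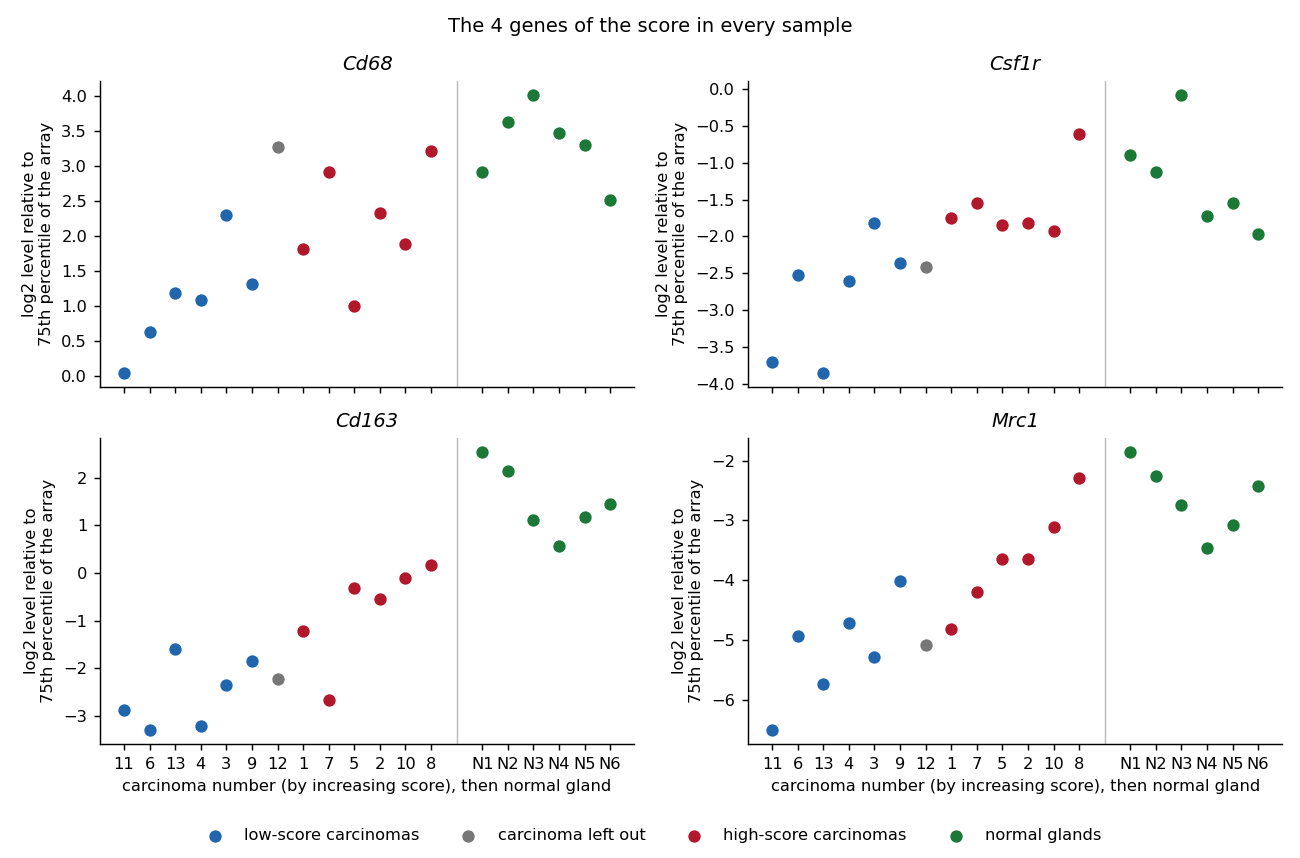
Levels of Cd68, Csf1r, Cd163 and Mrc1 in each carcinoma, ordered by increasing score, and in each normal gland (N1 to N6), as log2 intensity relative to the 75th percentile of the array; 1 point is 1 sample. The groups overlap for every gene, and carcinoma 12, left out of the groups, has the highest Cd68 of the carcinomas at 3.27.

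PU.1 recognises purine-rich sites, of which GAGGAA is the classic form, so the stretch upstream of each score gene is shown with matches to GAGGAA on either strand (TTCCTC where the match is on the other strand) in capitals. The sequences run 5′ to 3′ up to the base before the annotated transcript start, from RefSeq on the GRCr8 assembly.
Csf1r, chr18:56834129-56834378, plus strand: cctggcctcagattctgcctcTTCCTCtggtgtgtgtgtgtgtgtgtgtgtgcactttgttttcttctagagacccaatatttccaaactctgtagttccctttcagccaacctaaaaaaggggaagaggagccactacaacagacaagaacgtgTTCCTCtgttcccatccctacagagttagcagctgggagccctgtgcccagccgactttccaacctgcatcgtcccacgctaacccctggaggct
Cd68, chr10:54882442-54882691, minus strand: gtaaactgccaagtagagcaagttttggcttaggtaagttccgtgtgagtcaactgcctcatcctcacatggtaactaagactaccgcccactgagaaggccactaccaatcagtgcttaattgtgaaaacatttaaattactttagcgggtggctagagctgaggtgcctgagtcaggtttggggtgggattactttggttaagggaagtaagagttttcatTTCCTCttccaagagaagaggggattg
Mrc1, chr17:82157475-82157724, plus strand: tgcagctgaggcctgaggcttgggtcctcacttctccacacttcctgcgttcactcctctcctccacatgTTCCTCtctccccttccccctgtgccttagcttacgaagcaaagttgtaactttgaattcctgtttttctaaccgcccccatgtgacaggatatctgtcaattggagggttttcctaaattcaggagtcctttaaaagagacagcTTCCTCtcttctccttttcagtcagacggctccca
Cd163, chr4:158770524-158770773, plus strand: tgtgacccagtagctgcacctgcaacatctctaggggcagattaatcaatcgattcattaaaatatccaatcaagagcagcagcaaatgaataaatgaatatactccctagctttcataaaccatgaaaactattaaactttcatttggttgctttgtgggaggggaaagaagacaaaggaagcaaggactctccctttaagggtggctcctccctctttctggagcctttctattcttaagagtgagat
Adgre1, chr9:2329190-2329439, plus strand: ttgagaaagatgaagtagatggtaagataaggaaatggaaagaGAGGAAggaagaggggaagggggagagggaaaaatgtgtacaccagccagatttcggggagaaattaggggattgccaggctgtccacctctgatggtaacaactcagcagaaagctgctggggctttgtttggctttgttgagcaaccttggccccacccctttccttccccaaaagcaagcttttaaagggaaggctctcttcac
Csf1r and Mrc1 hold 2 matches each, Cd68 holds 1, at 27 bases before the start, and Cd163 holds 0. Adgre1, which encodes the macrophage surface protein F4/80 and is taken up below, holds 1. In windows not shown, Maf holds 0, C1qb 2 and the matrix gene Tnc 1. A window of this length holds the motif in 23.3% of all 33469 promoters in the table and in 23.2% of the 10761 tested genes with an entry. Of 34 tested macrophage genes listed below, 22 had an entry and 15 of these held the motif. Of 22 tested fibroblast and matrix genes, 12 had an entry and 4 of these held it. A match is a description of the letters and does not show that the factor binds there.

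Whether the high-score carcinomas had more of other macrophage genes was checked with a list of 34 tested pan-macrophage surface and signalling genes. Of the 34 genes, 31 had a positive difference, with a median log2 difference of 0.61 against 0.07 over all 12599 genes tested, of which 57% were positive and 43% negative. At an unadjusted p under 0.05, 8 were higher and 0 lower, beside 5.96% higher and 2.48% lower of all genes tested. None of the 34 passed the adjusted threshold. The level of the list, the mean of its centred genes, was -0.65, 0.25 and 1.09 in high-score and -0.92, -0.46 and 0.26 in low-score carcinomas, and only 3 high-score carcinomas lay above the highest low-score one. Carcinoma 5, a high-score carcinoma, was at -0.65, below carcinomas 3, 4, 9 and 13 of the low-score group, and carcinoma 12, left out as the middle, was at 0.96, second to carcinoma 8. The values moved with the choice of score genes. With the groups drawn again without Cd68 the median difference of the list was 0.08, with 3 genes higher and 1 lower at an unadjusted p under 0.05, and without Csf1r or without Cd163, where carcinoma 12 took the place of carcinoma 1, it was 0.81 with 16 higher and 0 lower. The median was 0.39 without carcinoma 8. By slide, the median was 1.27 on slide 1, -0.22 on slide 2 and 1.06 on slide 3. The label of macrophage-rich therefore describes the 4 genes, and other macrophage genes only in part, and the groups are named by their score here.

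Across all genes, limma's moderated test with Benjamini-Hochberg adjustment called 0 of 12599 genes higher and 0 lower (0% in each direction) in 6 against 6 carcinomas at an adjusted p under 0.05. At an unadjusted p under 0.05 it gave 751 genes higher (5.96%) and 312 lower (2.48%), 8.44% in all. Quantile normalization turned this split to 595 higher and 487 lower, and the authors' scaling of the same intensities to 632 and 418. The 6 values of each group did not overlap for 75 higher genes (0.595%) and 17 lower ones (0.135%). With the 4 highest against the 4 lowest carcinomas, 9 genes were higher and 2 lower at an adjusted p under 0.05, and the higher ones included Mfap5, Loxl2 and Tnn, whose products lie in the extracellular matrix. Leaving out any of 5 carcinomas changed the count of 0 higher genes, which became 11 without carcinoma 3, 5 without carcinoma 7, 3 without carcinoma 11, and 1 without carcinoma 1 or without carcinoma 5. The genes named next have the smallest p-values in each direction and did not pass. Genes given below as examples of a list did not pass either, unless said otherwise, and were chosen after their values were seen.

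Inhba, which encodes the activin subunit beta A, was among the genes closest to the threshold. Its levels were -0.66, 0.75 and 1.60 in high-score, -2.68, -1.97 and -1.23 in low-score carcinomas and -3.49, -2.51 and -1.71 in normal glands. All 6 high-score carcinomas lay above all 6 low-score ones, and the low-score carcinomas were close to the normal glands. The log2 difference was 2.60 ± 0.40 (SE, 6 against 6), 6.07-fold, with an adjusted p of 0.0763. It passed only without carcinoma 5 among the fits of 6 against 6 with a carcinoma left out. Tmem35a, which encodes a chaperone of nicotinic acetylcholine receptors, was -4.48, -3.58 and -2.88 against -7.80, -6.75 and -5.41, again with no overlap. Its difference of 3.1 ± 0.47 had the same adjusted p of 0.0763. Tmem35a was well above background on 6 high-score and only 2 low-score arrays, so the size of this difference rests largely on values at background. The filter asked for 6 carcinoma arrays, which the high-score ones alone supplied, so its p-value is not separate support. Tmem35a passed without carcinoma 3, 7 or 11, and with array brightness as a covariate, under the same limit.

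Red blood cell genes filled the next places. Hbb-b1, a beta globin gene, was 4.87, 5.68 and 5.93 in high-score, 2.40, 3.84 and 4.29 in low-score carcinomas and 6.24, 7.47 and 9.33 in normal glands, a difference of 1.92 ± 0.30 with an adjusted p of 0.0763. The groups did not overlap, and the normal glands lay above both. Hba-a1, an alpha globin gene, differed by 1.80 ± 0.30 (adjusted p 0.0786), and Alas2, the haem synthesis enzyme of red cell precursors, by 1.82 ± 0.39 (adjusted p 0.217). The globin genes of a cluster are near-identical, so their probes can share RNA and their values are not separate observations. Of 9 tested red cell genes, 8 had a positive difference, where 57% of all genes did, with a median of 1.80. Higher at an unadjusted p under 0.05 were 7 (77.8%, beside 5.96% of all genes). The list level was 0.12, 0.95 and 1.44 in high-score and -1.75, -0.43 and 0.22 in low-score carcinomas, with 5 of 6 high-score carcinomas above every low-score one. Carcinoma 12 had the lowest level, -1.84. Drawing the groups without Csf1r or without Cd163 exchanged carcinoma 1 for carcinoma 12, and then the median was 1.11 and 0 red cell genes had an unadjusted p under 0.05. Scoring with normexp background correction made the same exchange, so the place of these carcinomas depends on the background correction; other results with normexp keep the groups given here. How much blood each piece of tissue held was not recorded in the labels, and its part in the result was not tested.

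In the other direction the smallest p-values belonged to Pcp4, F2, Gclc, Spink8 and Gzmfl1. Pcp4, a calmodulin-binding peptide gene, was -6.19, -5.34 and -4.04 in high-score, -3.92, -2.21 and 0.23 in low-score carcinomas and -1.2, -0.18 and -0.04 in normal glands. Its groups did not overlap, and the difference was -3.18 ± 0.67 with an adjusted p of 0.217. F2, which encodes prothrombin, differed by -2.07 ± 0.45 (adjusted p 0.218). Gclc encodes the catalytic subunit of the enzyme that starts glutathione synthesis and was -0.84, -0.47 and -0.17 against 0.02, 0.40 and 0.88, a difference of -0.92 ± 0.21 (adjusted p 0.24). Spink8, with a difference of -4.37 ± 1.09, and Gzmfl1, with -1.66 ± 0.41, both had an adjusted p of 0.274 and overlapped between groups.

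Fibroblast and matrix genes leaned furthest towards the high-score carcinomas. All 22 tested genes of that list had a positive difference, with a median of 2.19, and 21 were higher at an unadjusted p under 0.05, where 5.96% of all genes were. None passed the adjusted threshold in 6 against 6. Col1a1, the main chain of fibrillar collagen, was 5.01, 5.91 and 6.21 in high-score, 0.11, 1.76 and 6.21 in low-score carcinomas and 2.52, 3.07 and 3.77 in normal glands. The high-score carcinomas were uniformly high, all above the normal glands, and the low-score ones spread over the whole range, with carcinoma 3 highest and carcinoma 4 lowest. The difference was 3.4 ± 0.89, 10.6-fold, with an adjusted p of 0.294. Pdgfrb, the platelet-derived growth factor receptor of fibroblasts and pericytes, was -0.32, 0.19 and 0.65 against -1.82, -1.31 and -0.59, with no overlap, a difference of 1.35 ± 0.27 and an adjusted p of 0.197. Pi16, a gene of adventitial fibroblasts, was 0.21, 0.35 and 0.78 against -1.47, -0.81 and -0.15, also with no overlap, a difference of 1.21 ± 0.22 and an adjusted p of 0.133. A second Pi16 probe differed by only 0.30. Mfap5, a microfibril protein, had the largest difference of the list, 3.95 ± 0.93 (adjusted p 0.263), and Col14a1 the smallest, 0.90.

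The level of the fibroblast and matrix list was 0.49, 1.15 and 1.59 in high-score and -2.27, -1.27 and 0.83 in low-score carcinomas, and -0.08, 0.44 and 1.44 in normal glands. Carcinomas 4 and 13 were lowest, at -2.17 and -2.27, and carcinoma 2 was highest. Carcinoma 3 was the exception in the low-score group, above carcinomas 1 and 7 of the high-score group. Without carcinoma 3, Col1a1, Col1a2, Col5a1 and Pi16 were among the 11 genes called higher. The arrays of carcinomas 4, 6 and 13 carry an evaluation mark in the scanner software's quality report, and all 3 are low-score; without them the median of the list was 1.29 and 12 of its genes were higher at an unadjusted p under 0.05. By slide, the median was 2.06 on slide 1, 0.06 on slide 2, whose only low-score carcinoma was number 3, and 2.58 on slide 3. Matrix proteases and their inhibitors had a median of 0.50 over 21 tested genes. Of these, 5 were higher (23.8%, beside 5.96% of all genes) and 0 lower at an unadjusted p under 0.05. The count was 2 higher without carcinoma 1 or carcinoma 2. Among them the secreted collagenase Mmp2 differed by 1.17 ± 0.49 (adjusted p 0.549).

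**Figure D2:**
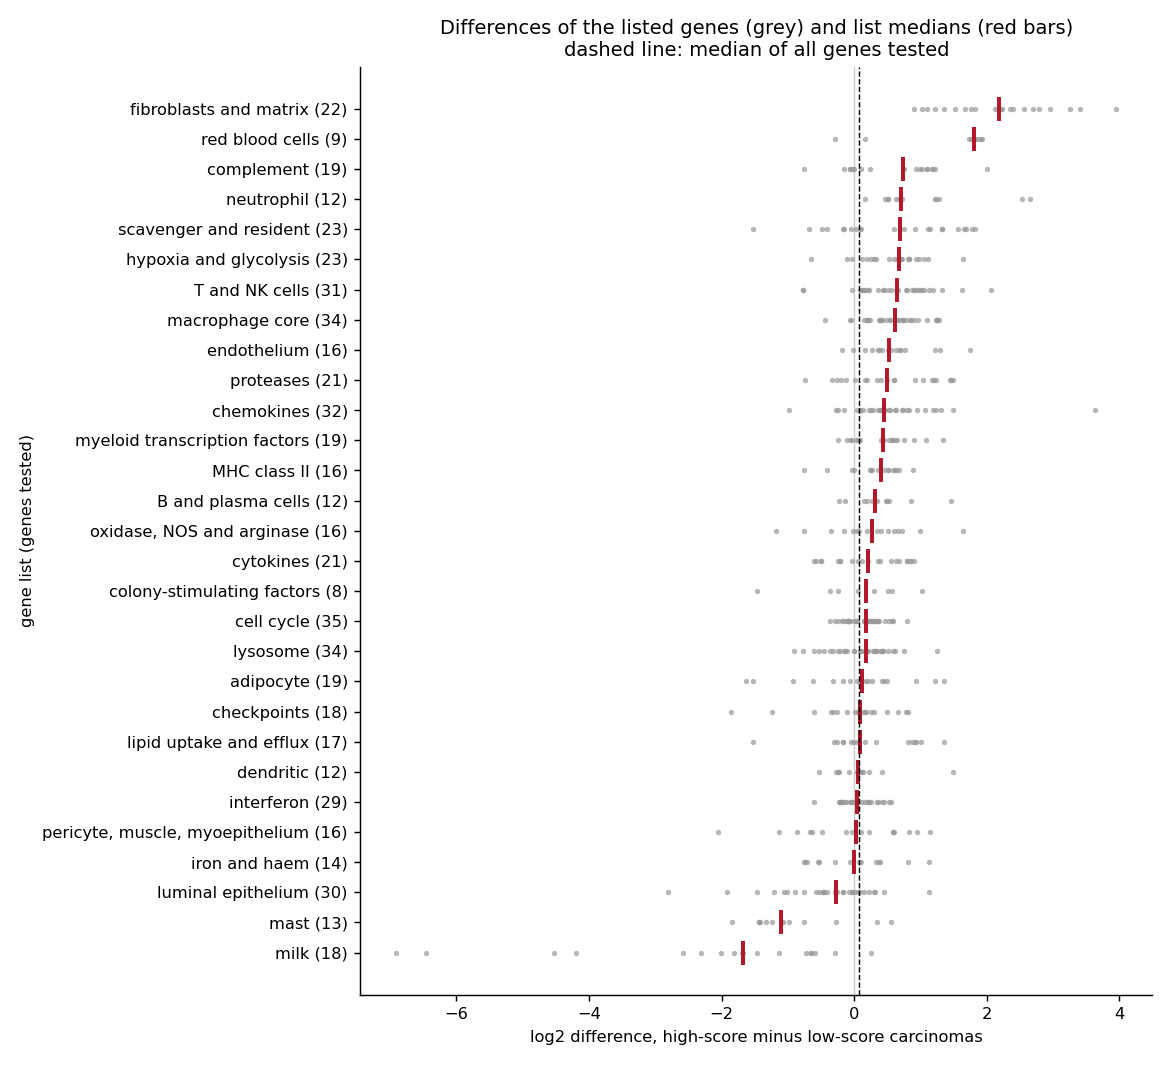
Log2 difference, high-score minus low-score carcinomas, of every tested gene (grey points) of 29 lists and the median of each list (red bar), with the median of all 12599 genes as a dashed line at 0.07. The fibroblast and matrix list, with a median of 2.19, and the red blood cell list, with 1.80, lie furthest to the right, and milk genes, with -1.68, furthest to the left, at -2.65 to -0.75 when 1 carcinoma is left out.

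The ligands of CSF1R, on which macrophages depend, were tested in a list of 8 genes that also holds other colony-stimulating factors, related cytokines and their receptors. Csf1 was -0.80, -0.35 and 0.29 in high-score and -1.54, -0.30 and 0.52 in low-score carcinomas, with a difference of 0.06 ± 0.37 and an adjusted p of 0.979. Its sign changed between settings, and the highest level of the 13 carcinomas was 1.41, in carcinoma 12. Il34, the other ligand of CSF1R, was -0.16, 1.49 and 2.61 against -0.23, 0.33 and 1.10, a difference of 1.02 ± 0.39 (adjusted p 0.49), with 4 high-score carcinomas above every low-score one. Csf2ra, the alpha chain of the GM-CSF receptor, differed by 0.56 ± 0.23 (adjusted p 0.519). The whole list had a median of 0.18, or -0.10 with the authors' scaling. Of its genes, 2 were higher and 1 lower at an unadjusted p under 0.05 (25% and 12.5%, beside 5.96% and 2.48% of all genes). The median was -0.11 without carcinoma 11 and 0.67 without carcinoma 13.

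Transcription factors of the myeloid lineage had a median of 0.44, with 15 of 19 differences positive, beside 57% of all genes. Of the 19, 4 were higher at an unadjusted p under 0.05 (21.1%, beside 5.96% of all genes). The median was 0.26 without carcinoma 2 or carcinoma 11, and 2 were higher without carcinoma 8. Spi1 was -3.34, -2.78 and -2.27 in high-score, -4.78, -3.34 and -3.12 in low-score carcinomas and -2.98, -2.13 and -1.74 in normal glands. Its difference was 0.75 ± 0.30 (adjusted p 0.517), with 5 of 6 high-score carcinomas above every low-score one and carcinoma 11 far below the rest. Maf, a factor of mature macrophages, was -3.00, -2.43 and -1.09 against -4.05, -3.78 and -2.85. Its difference was 1.35 ± 0.32 (adjusted p 0.265), with 5 of 6 high-score carcinomas above every low-score one.

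Surface and signalling genes of macrophages differed in how closely they tracked the score. Adgre1 was -2.25, -1.71 and -0.45 in high-score, -3.76, -2.90 and -1.92 in low-score carcinomas and -2.61, -1.43 and -0.12 in normal glands, with a difference of 1.25 ± 0.39 (adjusted p 0.368). The integrin chains Itgb2 and Itgam, which pair as the complement receptor Mac-1, differed by 1.25 ± 0.41 (adjusted p 0.387) and 1.10 ± 0.41 (adjusted p 0.48). Tyrobp and Fcer1g, the adaptors of activating myeloid receptors, differed by 0.74 ± 0.36 (adjusted p 0.621) and 0.66 ± 0.40 (adjusted p 0.713). Cd14, the lipopolysaccharide co-receptor, was 1.18, 3.67 and 5.18 against 1.32, 1.84 and 4.36, a difference of 0.73 ± 0.78 (adjusted p 0.857) that turned to -0.25 with 4 against 4. Its correlation with the score over the 13 carcinomas was -0.14. Trem2, a lipid receptor of macrophages, was 0.12, 1.15 and 2.94 against -0.59, 0.19 and 0.78, a difference of 1.23 ± 0.41 (adjusted p 0.403), and 4.07 in carcinoma 12, above every compared carcinoma. Of the 34 genes, 12 were highest in carcinoma 8 and 10 in carcinoma 12, and 14 were lowest in carcinoma 11.

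Scavenger receptors and genes of tissue-resident macrophages had a median of 0.69, or 0.40 without carcinoma 11. Of 23 genes, 8 were higher (34.8%, beside 5.96% of all genes) and 0 lower at an unadjusted p under 0.05. Folr2, a folate receptor of resident macrophages, was 0.13, 0.79 and 1.41 in high-score, -0.82, -0.35 and 0.14 in low-score carcinomas and 1.58, 2.33 and 3.4 in normal glands. Only 1 high-score carcinoma fell within the low-score range, the difference was 1.11 ± 0.24 (adjusted p 0.221), and every normal gland lay above every compared carcinoma. Lyve1, a hyaluronan receptor of resident macrophages and of lymphatic endothelium, differed by 1.66 ± 0.43 (adjusted p 0.277), with 5 of 6 high-score carcinomas above every low-score one. Siglec1, the sialic acid receptor sialoadhesin, differed by 1.78 ± 0.56 (adjusted p 0.368). Spp1, which encodes osteopontin, was -2.96, 1.74 and 3.79 against -1.22, 1.00 and 2.67, with a difference of 0.10 ± 0.98 (adjusted p 0.987) whose sign depended on the setting. The scavenger receptor Marco differed by -0.15 (adjusted p 0.961).

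Complement genes had a median of 0.74, and 8 of 19 were higher at an unadjusted p under 0.05 (42.1%, beside 5.96% of all genes). The count was 5 without carcinoma 6, 8 or 11. C1qa, C1qb and C1qc, the chains of the recognition protein C1q that macrophages secrete, leaned together. C1qb was 4.23, 4.89 and 6.06 in high-score, 3.01, 3.82 and 4.53 in low-score carcinomas and 5.46, 5.97 and 6.88 in normal glands, a difference of 1.19 ± 0.35 (adjusted p 0.356). C1qc differed by 1.09 ± 0.38 (adjusted p 0.437) and C1qa by 1.03 ± 0.36 (adjusted p 0.439), and all 3 were highest in carcinoma 8 and lowest in carcinoma 11. C3, the central component, differed by -0.75 ± 1.18 and its fluid-phase partner Cfb by -0.16, so these members of the cascade had negative differences. Serping1, the inhibitor of the first complement enzymes, was 1.72, 3.13 and 3.98 against -1.13, 1.75 and 2.55 (difference 2.00 ± 0.67, adjusted p 0.399).

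Antigen presentation by class II molecules leaned less in 6 against 6, with a median of 0.40 over 16 genes. Of these, 1 was higher at an unadjusted p under 0.05 (6.25%), near the 5.96% of all genes. The median correlation of these genes with the score over the 13 carcinomas was 0.53, beside 0.52 for complement genes. Cd74, the invariant chain, was 2.86, 3.87 and 5.33 against 2.11, 3.36 and 4.05 (difference 0.64 ± 0.47, adjusted p 0.775). RT1-Da, a class II alpha chain, was -0.35, 1.33 and 3.31 against -0.12, 1.34 and 2.16, so the medians were alike, and its difference of 0.26 ± 0.52 turned to -0.13 without carcinoma 8. That carcinoma held the highest value of 9 of the 16 genes, and without it the median of the list was 0.19. Lysosomal genes had a median of 0.17. Of 34, 3 were higher at an unadjusted p under 0.05 (8.82%), not far from the 5.96% of all genes. Among them, the cathepsin Ctsz differed by 1.25 ± 0.36 (adjusted p 0.354). The oxidase, nitric oxide and arginine list had a median of 0.27. Nos2, the inducible nitric oxide synthase, differed by 0.07 ± 0.73 (adjusted p 0.987) and Arg1, arginase 1, by -1.18 ± 0.85 (adjusted p 0.768). Macrophage lipid genes had a median of 0.08, and among them the cholesterol esterifying enzyme Soat1 had groups that did not overlap (0.92 ± 0.27, adjusted p 0.354). Iron and haem genes had a median of 0.00.

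Chemokines and their receptors had a median of 0.45, with 28 of 32 differences positive, beside 57% of all genes. Only 3 were higher at an unadjusted p under 0.05 (9.38%), not far from the 5.96% of all genes. The median was 0.24 without carcinoma 11 and 0.25 without carcinoma 2. Ccl11, the eosinophil attractant eotaxin, which fibroblasts also make, was -4.26, -1.86 and -0.36 in high-score and -8.75, -6.32 and -2.44 in low-score carcinomas, a difference of 3.64 ± 1.06 (adjusted p 0.356). Ccl11 was well above background on 6 high-score and only 3 low-score arrays, so the size of its difference rests partly on values at background. Ccl2, the main monocyte attractant, was -3.73, -0.80 and 0.32 against -3.33, -1.95 and 1.18 (difference 0.38 ± 0.80, adjusted p 0.938), and its receptor Ccr2 differed by 0.63 ± 0.58 (adjusted p 0.823) with a sign that turned when letter-coded carcinomas were left out. Cytokines and their receptors had a median of 0.21. Of 21, 1 was higher at an unadjusted p under 0.05 (4.76%), near the 5.96% of all genes.

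T and NK cell genes leaned with the score, with a median of 0.64 and 28 of 31 differences positive, beside 57% of all genes. Of the 31, 7 were higher at an unadjusted p under 0.05 (22.6%, beside 5.96% of all genes). Cd3d, a chain of the T cell receptor complex, was -2.01, -1.12 and 0.50 in high-score, -2.60, -1.96 and -1.67 in low-score carcinomas and -1.23, 0.21 and 2.03 in normal glands, a difference of 1.12 ± 0.37 (adjusted p 0.388). Cd3e and the co-receptor Cd8a differed by 0.92 ± 0.53 (adjusted p 0.696) and 1.33 ± 0.73 (adjusted p 0.673). Cd8a was well above background on only 4 low-score arrays, and its lowest values were -7.50 in carcinoma 11 and -7.57 in carcinoma 13. The granzyme Gzmb differed by -0.78 ± 0.66 and Foxp3, the factor of regulatory T cells, by -0.03 ± 0.69. Carcinoma 8 held the highest value of 20 of the 31 genes, and its list level of 1.46 stood apart from the other high-score carcinomas. Without carcinoma 8 the median was 0.35 and 4 genes were higher at an unadjusted p under 0.05, and without carcinoma 10 the count was 3. By slide, the median was -0.14 on slide 1, 0.47 on slide 2 and 1.58 on slide 3, which carried carcinoma 8. Checkpoint genes had a median of 0.09, or -0.02 after quantile normalization. Cd274, the ligand PD-L1, differed by 0.81 ± 0.73 (adjusted p 0.822), Sirpa by 0.17 ± 0.29 (adjusted p 0.918) and its partner Cd47 by 0.05 ± 0.17 (adjusted p 0.96), a sign that turned after quantile normalization. Cd200, which restrains myeloid cells through its receptor, had the largest negative difference there, -1.85 ± 0.72 (adjusted p 0.503).

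All 12 tested neutrophil genes had a positive difference, with a median of 0.70, and 0 of them had an unadjusted p under 0.05. Without carcinoma 13 the median was 1.51 and 7 were higher at that threshold. Carcinoma 13 had the highest level of the list, and S100a9, a subunit of the neutrophil protein calprotectin, was -3.78, -3.1 and 6.01 in low-score carcinomas and -1.69, 0.90 and 3.30 in high-score ones. Mast cell genes had a median of -1.10, with 11 of 13 negative and 0 at an unadjusted p under 0.05, and their median correlation with the score was 0.20. Without carcinoma 11 the median was -2.26 and 4 were lower at that threshold. The median was -0.68 without carcinoma 13. The difference and the correlation thus had opposite signs. Carcinoma 11, lowest in score, had the lowest mast cell level, -3.59, and the other low-score carcinomas had 0.61 to 2.22. B and plasma cell genes had a median of 0.32 over 12 genes. Of these, 2 were higher at an unadjusted p under 0.05 (16.7%, beside 5.96% of all genes). Among dendritic cell genes, with a median of 0.06, or -0.04 after quantile normalization, the actin bundler Fscn1 was 0.78, 1.55 and 2.32 against -1.06, 0.08 and 0.78. Its groups met at 0.78 without overlap before rounding, with a difference of 1.49 ± 0.32 (adjusted p 0.217).

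Endothelial genes were the only list of 29 whose level did not overlap between the groups. It was 0.10, 0.30 and 0.65 in high-score and -0.63, -0.24 and 0.06 in low-score carcinomas, and 0.90, 1.47 and 1.99 in normal glands, so the gap between the groups was narrow beside the distance to normal glands. Carcinoma 12, left out of the groups, was at -0.29, below the low-score median. It takes the place of carcinoma 1 when the groups are drawn without Csf1r or without Cd163, and the levels then overlap. The median difference was 0.53. Of 16 genes, 6 were higher (37.5%, beside 5.96% of all genes) and 0 lower at an unadjusted p under 0.05. With 1 carcinoma left out the median was 0.39 to 0.68, with 4 to 8 genes higher. The median correlation of these genes with the score over the 13 carcinomas was 0.28. Cdh5, the cadherin of endothelial junctions, was -2.22, -1.88 and -1.58 against -2.80, -2.55 and -2.38, with no overlap and a difference of 0.69 ± 0.17 (adjusted p 0.274). Kdr, the main VEGF receptor, differed by 0.69 ± 0.24 (adjusted p 0.434), and Pecam1 by 0.27 ± 0.28 (adjusted p 0.853). Vegfa was 1.64, 2.16 and 3.19 against 0.30, 0.93 and 3.68, a difference of 0.94 ± 0.51 (adjusted p 0.673), and its 3 other probes differed by -0.23, 0.81 and 0.06. Glycolysis and hypoxia genes had a median of 0.68, with 20 of 23 positive, beside 57% of all genes. Of the 23, 5 were higher at an unadjusted p under 0.05 (21.7%, beside 5.96% of all genes). This count was 1 after quantile normalization. The count was 0 without carcinoma 2, where the median was 0.38, 0 without carcinoma 10, 1 without carcinoma 11 and 2 without carcinoma 6.

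Luminal epithelial genes had a median of -0.27, with 21 of 30 negative, beside 43% of all genes. Of the 30, 2 were lower at an unadjusted p under 0.05 (6.67%, beside 2.48% of all genes). The median was -0.05 without carcinoma 2, and 5 were lower without carcinoma 1 or carcinoma 10. Epcam was 3.49, 3.77 and 4.23 in high-score and 3.1, 4.06 and 4.27 in low-score carcinomas, a difference of -0.04 ± 0.23 (adjusted p 0.978), and Krt8 differed by 0.23 ± 0.52 (adjusted p 0.942). Pgr, the progesterone receptor, was -5.99, -3.48 and -1.2 against -2.42, -1.86 and 0.15 (difference -1.92 ± 0.72, adjusted p 0.48), and Esr1, the oestrogen receptor, was well above background on only 3 high-score and 4 low-score arrays, so no difference is given for it. The level of the list was -1.37, 0.04 and 0.43 against -0.17, 0.20 and 0.52, with carcinomas 2 and 7 low.

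Milk genes had a median of -1.68, with 17 of 18 negative, beside 43% of all genes. Of the 18, 2 were lower at an unadjusted p under 0.05 (11.1%, beside 2.48% of all genes). The median was -0.75 without carcinoma 5, and without carcinoma 7 it was -2.65 with 6 genes lower. Csn2, beta casein, was -8.59, -0.30 and 9.10 in high-score and 1.33, 6.97 and 8.44 in low-score carcinomas. Its difference of -6.45 ± 2.74 (adjusted p 0.552) came with 1 high-score carcinoma, number 7, above every low-score one. Csn2 was well above background on only 4 high-score arrays, so the size of the difference rests partly on values at background. On slide 1, where carcinoma 7 was the only high-score sample, the median of the list was 3.15; it was -2.53 on slide 2 and -2.21 on slide 3. Cell cycle genes had a median of 0.17 and interferon-stimulated genes of 0.04, or -0.08 after quantile normalization, with 0 of 35 and 0 of 29 at an unadjusted p under 0.05. Fat cell genes had a median of 0.12 and 0 of 19. Adipoq, the fat cell hormone adiponectin, was -6.73, -5.24 and -3.97 against -8.80, -7.21 and -2.73, and 3.99, 4.38 and 5.17 in normal glands.

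**Figure D3:**
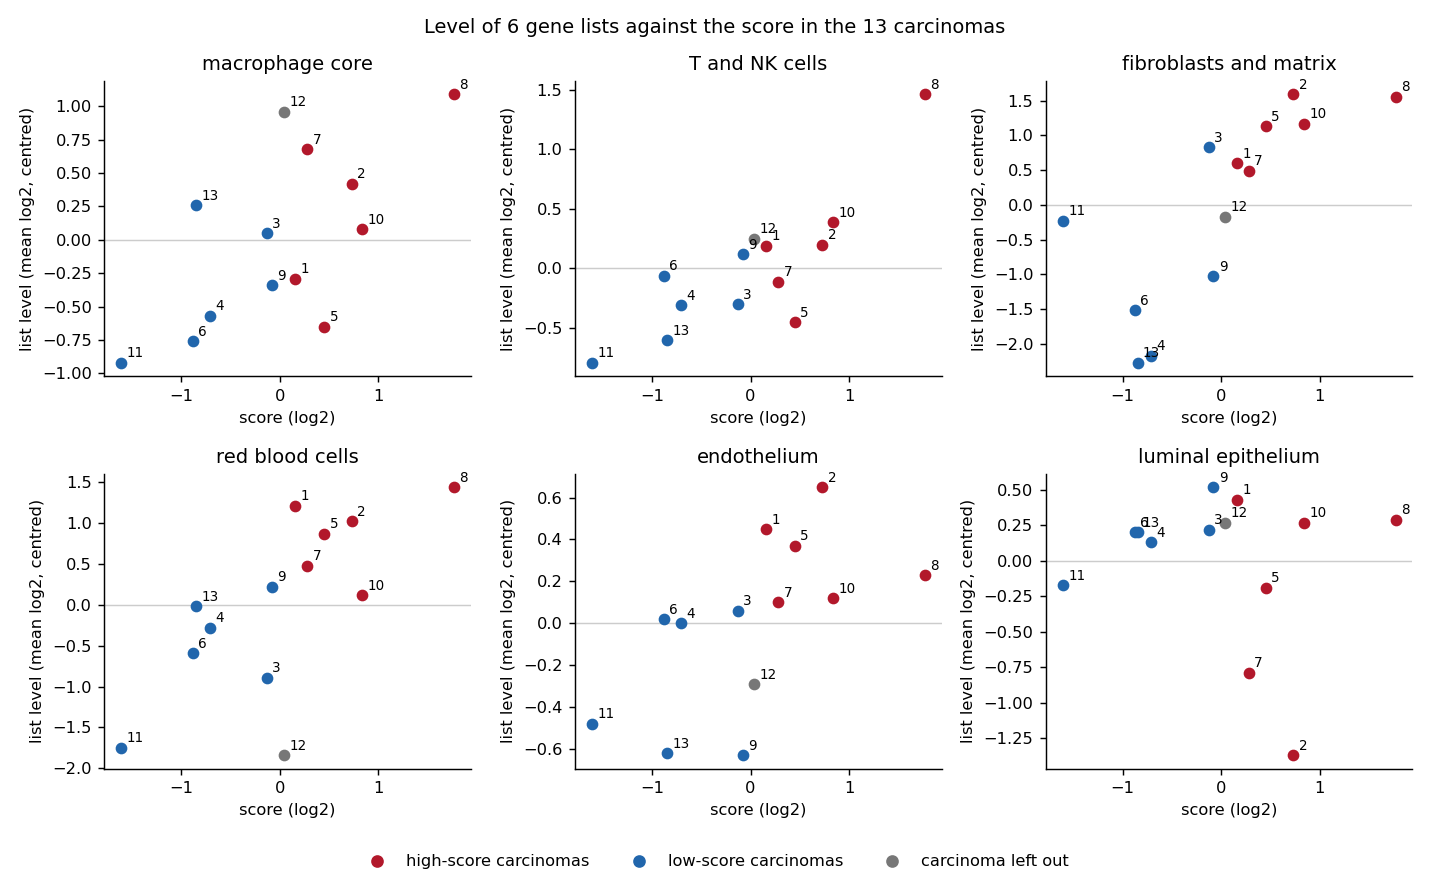
Level of 6 gene lists (mean of the listed genes, each centred on its carcinoma mean, log2) against the score in the 13 carcinomas, numbered, with high-score, low-score and left-out carcinomas in different colours. Carcinoma 12 is second highest for macrophage core genes at 0.96 and lowest for red blood cell genes at -1.84. The endothelial level of all 6 high-score carcinomas lies above that of the low-score ones, and that of carcinoma 12 is -0.29.

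With the score as a continuous term over all 13 carcinomas, 25 genes rose with it and 0 fell (0.198% and 0% of 12599, limma, adjusted p under 0.05). At an unadjusted p under 0.05 there were 798 genes with a positive and 322 with a negative slope (6.33% and 2.56%, 8.89% in all). Genes of this fit are named after their values were seen. The score holds the 4 genes of the rule, measured on the same arrays, so these slopes describe what varied with it. Maf had the smallest p, with a slope of 0.92 ± 0.11 log2 units per unit of score, an adjusted p of 0.0115 and r = 0.96 over 13 carcinomas. It was highest in carcinoma 8 and lowest in carcinoma 11. The macrophage genes among the 25 included Maf, Adgre1 (0.96 ± 0.13, adjusted p 0.0206), Siglec1 (1.35 ± 0.22, adjusted p 0.0243) and C1qc (0.88 ± 0.14, adjusted p 0.0243). Further ones were the lectins Clec4a1 and Clec4a3 and the myeloid nuclear antigen Mnda. From the class II list, the peptide loader RT1-DMa was among the 25. The T cell genes Cd2 (1.43 ± 0.21, adjusted p 0.0219), Cd3d (0.81 ± 0.15) and Cd3g (0.91 ± 0.17, both adjusted p 0.0462) rose with them, as did Arhgdib and Rasal3, regulators of small GTPases in blood cells. T cells also express Maf, so it is not a macrophage gene alone.

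Others of the 25 encode matrix and secreted proteins. Tnc, the matrix protein tenascin C, was -3.39, -0.84 and -0.09 in high-score, -4.47, -4.06 and -2.97 in low-score carcinomas and -4.70, -3.51 and -3.09 in normal glands. Its slope was 1.5 ± 0.27 (adjusted p 0.0462), and 5 of 6 high-score carcinomas lay above every low-score one. Grem1, a secreted BMP antagonist, had a slope of 1.69 ± 0.30 (adjusted p 0.0386), Bmper, another secreted BMP regulator, one of 1.24 ± 0.20 (adjusted p 0.0243), and Rarres2, the chemoattractant chemerin, one of 1.07 ± 0.20 (adjusted p 0.0462). Stmn2, a microtubule regulator best known from neurons, had the steepest slope, 2.59 ± 0.48 (adjusted p 0.0462). The slopes of the 25 ran from 0.78 to 2.59 and the correlations from 0.83 to 0.96. Of the 25 genes, 14 were in no list, and 23 had a higher median in normal glands than in high-score carcinomas; Tnc and Grem1 did not. For 6 of the 25 the low-score values lay partly at background, and their slopes rest on such values. Of 6 low-score arrays, Cd2 and Bmper were well above background on 1, Ndn and Stmn2 on 3, Grem1 on 4 and Sit1 on 5.

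**Figure D4:**
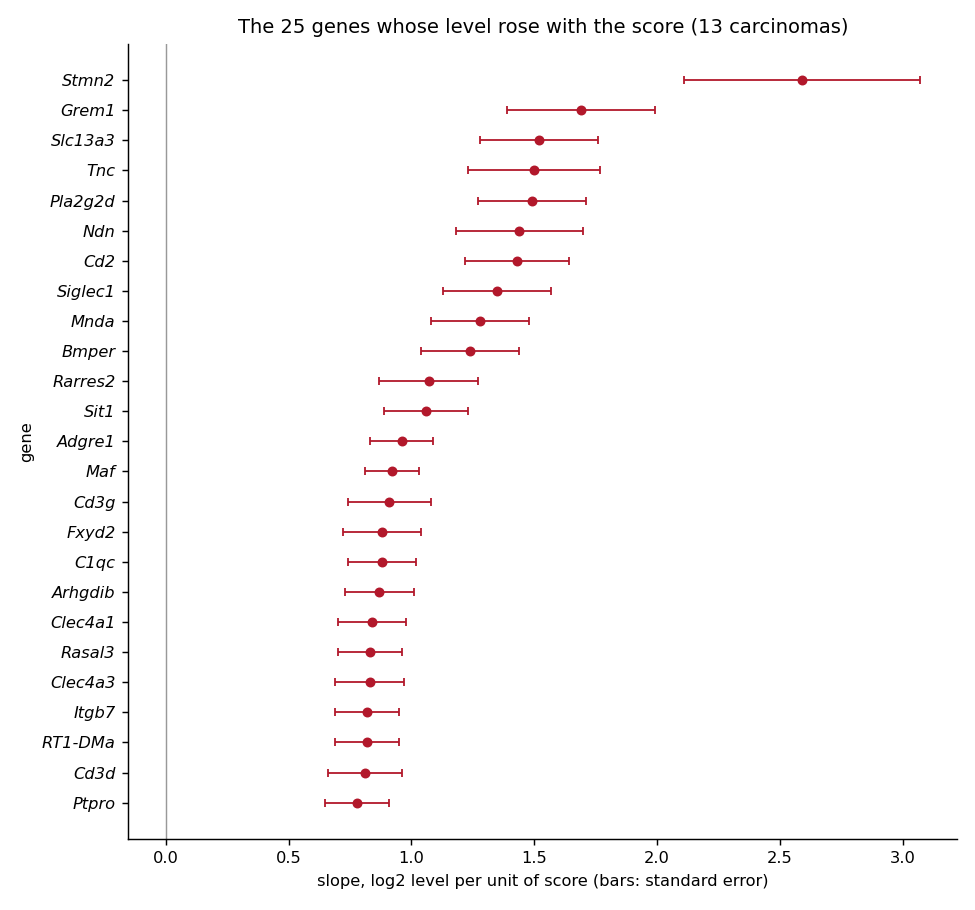
Slope of the log2 level on the score, with its standard error, for the 25 genes that rose with the score over 13 carcinomas. Slopes run from 0.78 to 2.59 log2 units per unit of score.

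Among genes in no list, those whose profile was most like the score were Itgb7 (r = 0.91), Map4k1 (0.91), Ptpro (0.90), Sit1 (0.90) and Bmper (0.90), over 13 carcinomas that share these arrays. Itgb7 encodes an integrin chain of lymphocytes, Map4k1 a kinase of blood cells, Ptpro a receptor-type phosphatase and Sit1 an adaptor of T cell signalling. Itgb7 was -3.37, -2.45 and -1.38 in high-score and -4.34, -3.41 and -3.22 in low-score carcinomas, with 5 of 6 high-score carcinomas above every low-score one. These correlations are a description of the pattern, since the genes were taken for them.

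The calls on the continuous score rested on the ends of the ranking. Carcinoma 8 held the highest value of 20 of the 25 genes and carcinoma 11 the lowest of 15. Without carcinoma 8, 0 genes passed in limma (1156 at an unadjusted p under 0.05). Without carcinoma 6 only Maf passed. The count was 4 without carcinoma 10, 5 without carcinoma 11, 8 without carcinoma 2 or carcinoma 4, and 16 without carcinoma 9, and it was 36 without carcinoma 12. Of the 25, 2 (Maf and Tnc) were among the 5 called without carcinoma 11 and 24 among the 36 called without carcinoma 12. With slide as a block 8 of the 25 still passed, and quantile normalization kept 12. With only the 10 number-coded carcinomas 26 genes rose and 1 fell, of which 4 (Maf, Cd3d, Itgb7 and Ptpro) were among the 25. All 25 slopes were positive in each of these fits, including those where they did not pass. The 25 were taken for positive slopes on these arrays, and the fits share most or all of their carcinomas. Their signs were therefore likely to stay positive and are not separate support.

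**Figure D5:**
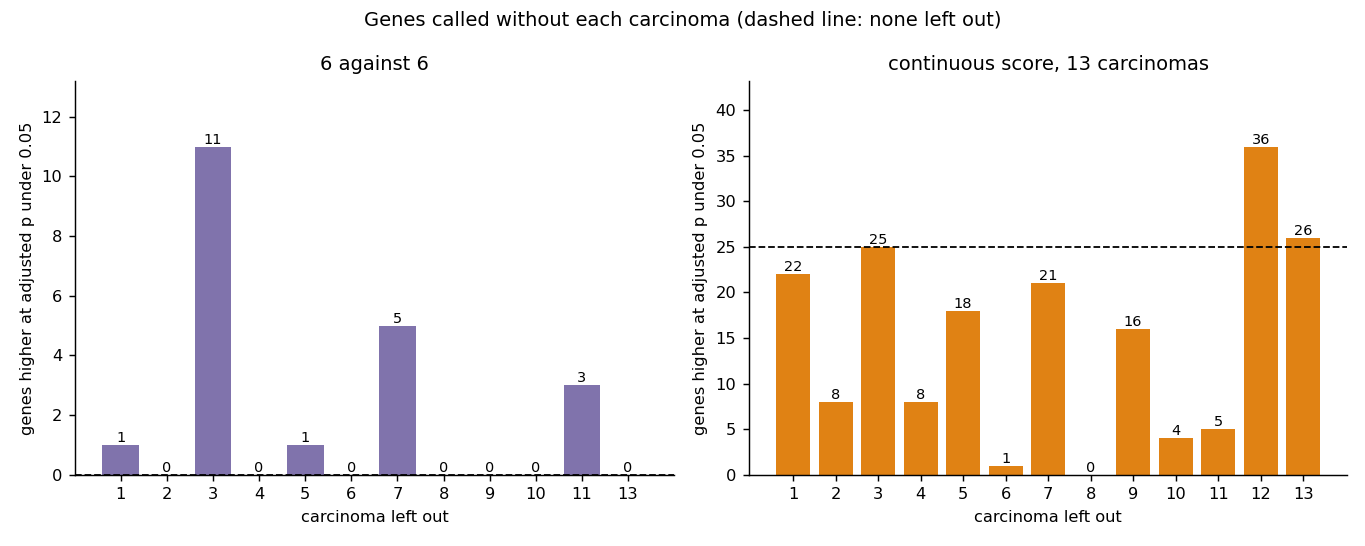
Number of genes higher at an adjusted p under 0.05 when each carcinoma was left out, in the comparison of 6 against 6 (left) and with the continuous score (right); dashed lines mark the counts with no carcinoma left out, 0 and 25. The bars run from 0 to 11 on the left and from 0 without carcinoma 8 to 36 without carcinoma 12 on the right.

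Technical measures were placed unevenly over the groups. The low-score group held both letter-coded carcinomas of the comparison (11 and 13) and all 3 of its arrays with an evaluation mark (4, 6 and 13). Slide 1 held 1 high-score and 3 low-score carcinomas, slide 2 held 3 and 1, and slide 3 held 2 and 2; 0 genes passed within any slide (2051, 1277 and 2052 at an unadjusted p under 0.05). High-score arrays had a 75th percentile of intensity of 485 to 1270 and low-score arrays one of 873 to 1430, a log2 difference of -0.235 (2-sided exact permutation test over 924 splits, p = 0.398). Of all spots, 79.1% ± 8.28 (SD, n = 6) were well above background against 77.9% ± 3.69 (n = 6; exact permutation p = 0.788), and without carcinoma 7 the difference of 1.2 points became 4.55 (exact permutation p = 0.013). The part of these measures in the results was not tested beyond the fits that include them.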

How the data were processed

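RNA of 13 carcinomas and 6 normal glands was measured on single-colour arrays, 1 per sample, and the intensity of each spot, per the file headers, is the processed signal of Agilent Feature Extraction 10.7.3.1, already background-subtracted by that software. The authors' deposited value table is on a log2 scale and equals the values used here apart from a constant per array of 0.43 to 0.54; the step that set it is not given in the sources used here. The log2 intensity minus the 75th percentile of the array (58717 non-control spots) was computed, with flagged spots (403 to 1069 per array) missing and spots of a probe averaged. No spot was saturated. Of 30367 probes, 18005 were matched by RefSeq accession to a gene symbol (15168 symbols) in a RefSeq gene table of GRCr8, and 12362 were not. A probe had to be well above background in at least 0.5 of its spots on 6 or more carcinoma arrays. The probe with the highest carcinoma mean stood for its gene, which left 12603 genes, and 12599 were tested without the 4 score genes. Tests used limma 3.58.1 in R 4.3.3 (lmFit, eBayes with an intensity trend), 2-sided, with Benjamini-Hochberg adjustment at 0.05, and the scripts were tested on simulated data. The number of arrays limits the precision.

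The members and the 29 gene lists (665 genes, 568 tested) were chosen with earlier results of these data known. The rule for named genes took the 5 smallest p-values per direction, since no gene passed, a set of genes always named (1 of them, Top2a, did not pass the filter), and the 5 genes in no list most correlated with the score. Alternatives changed the background correction, scaling, filter, groups, covariates and samples; normexp used the median spot signal, since the files used here hold no mean signal column. Settings added after the data were seen were each slide alone, arrays without an evaluation mark, the share of spots as a covariate and groups of 5. The alternatives on the continuous score were added then too. Some items are not reported here.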

Additional observations from a re-analysis of the deposited data

Results flagged for a closer look

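Within the groups of 6, 156 sets of values were checked for a carcinoma far from the other 5, and 13 had one, where chance gives about 1 in 20. Carcinoma 8 stood above the other high-score carcinomas for the level of the class II list (1.37 against -0.39 to 0.13) and for that of the oxidase, nitric oxide and arginine list (0.91 against -0.25 to 0.17). Carcinoma 7 stood below the others for the list of pericyte, smooth muscle and myoepithelial genes (-2.29 against 0.19 to 0.72). It stood above the others for fat cell genes (1.03 against -0.58 to -0.08). Carcinoma 10 stood above them for Krt8 (3.65 against 1.49 to 2.25).

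Among low-score carcinomas, number 13 was far above the rest for Nos2 (-0.80 against -5.51 to -4.68), for the gelatinase Mmp9 (-2.60 against -7.19 to -5.58), for neutrophil genes (2.65 against -1.34 to -0.76) and for the level of the list of colony-stimulating factors, related cytokines and their receptors (1.49 against -0.75 to -0.05), though not for Csf1 (0.46, where carcinoma 3 had 0.52) or Il34 (0.28). Mmp9 was well above background on only 2 low-score arrays, so the size of its gap rests partly on values at background. Carcinoma 11 was far below the rest for Spi1 (-4.78 against -3.45 to -3.12) and for mast cell genes (-3.59 against 0.61 to 2.22). Carcinoma 9 was low for Csn2 (1.33 against 5.82 to 8.44). Carcinoma 4 was high for the list of pericyte, smooth muscle and myoepithelial genes (0.75 against -0.28 to 0.06).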

How the results depend on the processing

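The groups are ranks of 13 carcinomas with no gap between them, so most results moved with which carcinomas entered. No paired analysis was possible because both groups are carcinomas and share no replicate number. In 6 against 6, the count of higher genes was 0 and became 25 with the continuous score, 9 with 4 against 4, 1 with array brightness as a covariate and 1 without Csf1r or Cd163 in the score; leaving out 1 carcinoma gave 0 to 11. The count of lower genes became 2 with 4 against 4 and 2 without Cd68 in the score. With the continuous score, the count of all genes that rose was 25 and became 12 after quantile normalization, 8 with slide as a block and 70 with code series as a covariate, where 4 fell and 22 of the 25 were among those called. It was 0 to 36 without 1 carcinoma, and 1 gene fell with number-coded carcinomas only. The difference in the share of spots well above background by group became -0.0634 points with number-coded carcinomas only and 0.0245 to 4.55 without 1 carcinoma. The causes were not tested.

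Differences near 0 changed sign, and so did some larger ones. In 6 against 6, the larger ones included Arg1 at -1.18, Cd14 at 0.73, Ccr2 at 0.63, Cdt1 at 0.59 and Tap1 at 0.52. Without Cd68 in the score, Csf1 was -0.52, Spp1 -0.91, Nos2 -0.24, Sirpa -0.20, Pecam1 -0.25, Arg1 0.03 and Epcam 0.12. With 4 against 4, Cd14 was -0.25, Spp1 -0.45, Nos2 -0.20 and Epcam 0.04, and with the continuous score, scaled to the group difference, Cd14 was -0.32 and Epcam 0.18. With code series as a covariate or number-coded carcinomas only, Csf1 was -0.04, Ccr2 -0.03, Krt8 -0.24, the replication licensing gene Cdt1 -0.14 and the peptide transporter Tap1 -0.15. With array brightness, Csf1 was -0.02 and Spp1 -0.25, and with the luminal score, Csf1 was -0.03, Spp1 -0.33 and Epcam 0.08. With slide as a block, Cd47 was -0.03 and Epcam 0.07, and with scan day, Cd47 was -0.01, Epcam 0.11 and Nos2 -0.18. Quantile normalization gave Cd47 -0.01 and the ferritin gene Ftl1 -0.01, and normexp gave Nos2 -0.10 and Pdcd1 0.05. Leaving out 1 carcinoma gave Csf1 -0.18 to 0.23, Spp1 -0.45 to 0.90, Nos2 -0.12 to 0.82, Epcam -0.19 to 0.05, Krt8 -0.09 to 0.61, RT1-Da -0.13 to 0.60 and Rab27b -0.07 to 0.62.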

Other observations

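Carcinoma 12, in the middle of the score and in neither group, was high for many of the myeloid genes that were high in carcinoma 8. It held the highest value of the 13 carcinomas for Cd68 (3.27), Csf1 (1.41), Tyrobp (4.60), Fcer1g (3.49), Trem2 (4.07), Spp1 (5.47), Sirpa (2.90), Itgb2 (-0.44) and Folr2 (1.76), and carcinoma 8 held it for Maf (-1.09), Adgre1 (-0.45), Siglec1 (1.03) and the 3 C1q chains. Carcinoma 8 was second for Cd68 (3.22), Tyrobp (3.94), Fcer1g (3.39), Itgb2 (-0.79) and Folr2 (1.41), and carcinoma 12 for C1qa (3.81) and C1qb (5.73). In carcinoma 12 Cd163 was -2.23 and Mrc1 -5.08, near the low-score medians of -2.61 and -5.10. These genes were picked after their values were seen.

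Lysosomal genes were high in a low-score carcinoma. Carcinoma 3 held the highest value of 17 of the 34 tested genes and a list level of 0.76, where the high-score carcinomas had -0.51 to 0.52. Cell cycle genes were lowest in carcinoma 13 for 24 of 35 genes, and glycolysis and hypoxia genes highest in carcinoma 2 for 15 of 23.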
